A study of Mus musculus with 4514 samples.

Results

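The cells described here are mouse hepatocytes of postnatal day 9 (P9) that stood at the 2 ends of a zonation score. They came from mice with 2 alleles and no treatment named in the labels: Alb-Cre, in which the albumin promoter drives a recombinase in hepatocytes, and Rosa-tdTomato, a fluorescent reporter. Cells were picked singly into lysis buffer and profiled with mSTRT-seq, which barcodes the cDNA of each well before pooling. The score s of a cell was the log2 ratio of 2 sums of CPM (a gene's counts scaled to the same total in every cell, spike-ins left out), each with 1 CPM added. The upper sum held Glul, Oat, Slc1a2, Cyp2e1 and Cyp1a2, and the lower sum held Cyp2f2, Hal, Sds, Ctsc and Hsd17b6. The cells were thus selected on measured values of these 10 genes, which carry no test here. The 49 cells of highest s are called pericentral and the 49 of lowest s periportal, which names their score and not a position seen in tissue. These 98 cells are described here, and the other 50 P9 cells, which lay between them, are called middle. The whole series held 4514 samples, nearly all of them single cells or nuclei. Other groups used here were cells of the same genotype at P3, P6, P12, P15, P18, P24 and P30, together with E17.5, E19.5 and P0 for description, and 96 P9 nuclei (75 labelled 2N and 21 labelled 4N). Adult hepatocytes of the same genotype, at P60, had been sorted into bulk libraries of CD73+ cells (CV), CD324+ cells (PV) and cells lacking both surface proteins (ML), with 2 libraries each.

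A liver lobule is a field of hepatocytes between portal tracts, where blood enters, and a central vein, where it leaves. Hepatocytes near the portal tract are known for urea synthesis, glucose output and secretion of plasma proteins, and those around the central vein for glutamine synthesis, drug oxidation and bile acid synthesis. WNT ligands from the endothelium of the central vein act through beta-catenin on the pericentral hepatocytes, and this layout takes shape after birth.

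The score itself ran from -3.15 to 13.16 over all P9 cells, with a median of 4.22. The last cell inside the pericentral group had an s of 5.53 and the first outside it 5.51, and at the other edge the last cell outside the periportal group had 3.16 and the first inside 3.11. Neither edge fell in a gap, so the groups are 2 ends of a continuous range. Of the pericentral cells, 5 had no count of any of the 5 portal genes. Total counts per cell were 82080 to 324586 (median 184933) in pericentral and 100570 to 346861 (median 192060) in periportal cells, with a median of 7434 and 7052 detected genes. No label names an animal or litter, so the P9 cells were treated as 1 sample. Intervals given for P9 are exact 95% intervals of counting error only, and no P9 contrast carries a p-value. Of all 1643 cells from E17.5 to P30, 0 had a count profile identical to that of another cell.

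The genes of the score are a description of the choice. Glul, which makes glutamine from ammonia, was detected in all 49 cells of both groups and ran from 13.2 to 3992 CPM (median 300.6) in pericentral and from 5.21 to 130 CPM (median 36.8) in periportal cells. Of the pericentral cells, 31 lay above the highest periportal cell. Cyp2e1, an ethanol- and drug-oxidising P450, ran from 1689 to 7550 CPM (median 4029) against 69.7 to 2099 CPM (median 805), and 47 pericentral cells lay above every periportal cell. Cyp2f2, a P450 of the portal side, had a count in 16 pericentral and 43 periportal cells, with medians of 0 and 23.8 CPM. Hal, which begins histidine breakdown, had a count in 24 and 45 cells, with medians of 0 and 43.95 CPM. Both sides of the score were therefore present, but most portal genes were scarce: Sds, a serine dehydratase, had a count in 1 pericentral and 6 periportal cells. Hsd17b6 was more abundant, at 0 to 628.2 CPM in periportal and 0 to 122.1 CPM in pericentral cells. Even in periportal cells the central sum mostly exceeded the portal sum, with medians of 1008 and 359 CPM and a median s of 1.65. All 10 hepatocyte markers were expressed, with a summed level of 60070 to 133164 CPM in pericentral and 60802 to 133581 CPM in periportal cells.

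**Figure D1:**
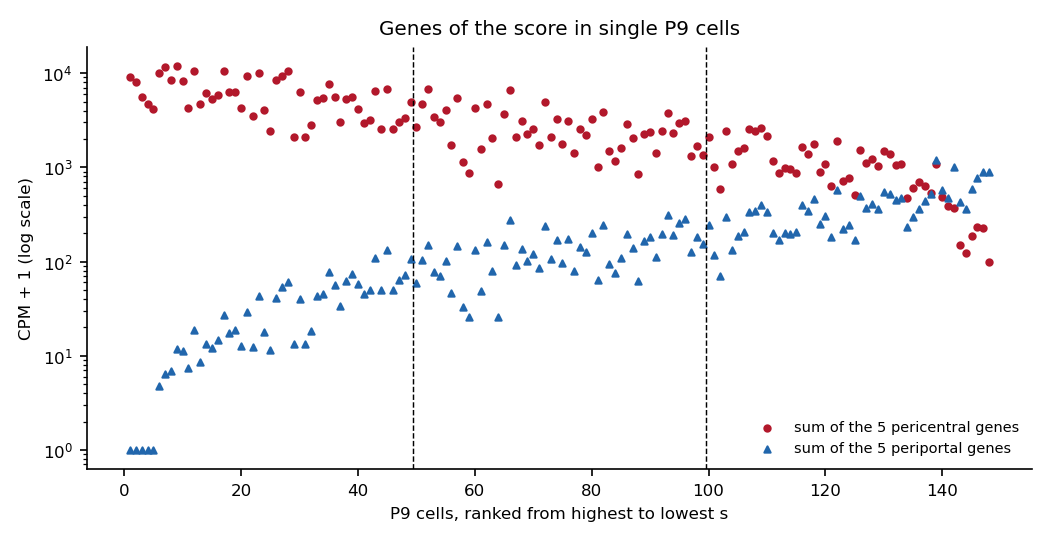
Each P9 cell is plotted as a pair of points at its rank by s (horizontal axis): red points give the summed CPM + 1 of the 5 pericentral genes and blue triangles that of the 5 periportal genes, on a log scale. Dashed lines bound the 49 pericentral cells (left) and the 49 periportal cells (right), and the 5 triangles on the base line are the cells with no portal count.

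Across all other genes, 4458 had a mean level of at least 20 CPM over both groups and a count in at least 20% of the cells of either. Of these, 3.3% were at least 2-fold higher in the pericentral pool of summed counts and are called pericentral genes here, and 85 (1.91%) were at least 2-fold higher in the periportal pool and are called periportal genes. The pericentral share of these calls was 63.4%. It depended on scaling: with TMM factors, 94 genes were pericentral and the pericentral share was 45.9%, since TMM lowered the median log2 difference by 0.15. All P9 values below use total counts. The middle cells had a level between the ends for 97.96% of the pericentral genes and for 78 of the 85 periportal genes. A single cell gave more than 25% of the counts of its own group for 4 pericentral and 26 periportal genes.

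The largest pericentral differences belonged to transporters and enzymes. Pnliprp1 (pancreatic lipase related protein 1, chr19:58728887-58744169 on GRCm38) was at 0 to 2692 CPM in pericentral cells, with a median of 80.6, and at 0 to 75.5 CPM in periportal cells, with a median of 5.44. Its 2970 pericentral and 99 periportal counts gave a 31.4-fold difference (25.7 to 38.7), and 1 cell held 21.65% of the pericentral counts. In 26 of the 49 pericentral cells it exceeded every periportal cell. Rhbg (chr3:88242874-88254709), an ammonia transporter, ran from 0 to 581 CPM (median 138.6) against 0 to 40.8 CPM (median 4.75). In 37 of the 49 pericentral cells Rhbg exceeded every periportal cell, and the pools differed 21.5-fold (17.1 to 27.2). Lhpp (chr7:132610638-132706420), a phosphatase that acts on phosphohistidine, had a count in 42 pericentral and 15 periportal cells, with pools of 59.05 and 2.75 CPM, 21.5-fold apart (14.6 to 32.9). These 3 genes separated most but not all cells of the ends.

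Among other transporters, Slc16a10, a carrier for aromatic amino acids, had pools of 42.4 and 3.87 CPM, and Slc1a4, a carrier for neutral amino acids, 1485 and 390 counts (3.98-fold). Serpina6, the corticosteroid-binding globulin of plasma, had medians of 187.4 and 16.02 CPM and pools 10.8-fold apart (9.49 to 12.3). The pools of Pdk4, which switches off pyruvate dehydrogenase, differed 5.28-fold, and those of Ldhb, a lactate dehydrogenase subunit, 4.60-fold. Other genes of this group were Gstm2, a glutathione transferase of a family of near-identical genes (10.6-fold, with 1 cell giving 37.98% of its pericentral counts), Pcp4l1 (5.69-fold), Nxpe2 (4.46-fold), the steroid dehydrogenase Hsd17b11 (4.27-fold) and Reln, a secreted matrix glycoprotein (3.96-fold).

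The 6 WNT pathway genes that could be compared were all higher in the pericentral pool with total counts and 5 were with TMM, beside 59.9% and 39.9% of all genes compared. Of 28 genes of the pathway, 6 passed the level filter, 2 of them were at least 2-fold higher in pericentral cells and 0 at least 2-fold lower, with a median log2 of 0.81 beside 0.07 for all 4458 genes. Notum, a secreted enzyme that inactivates WNT ligands, had a median of 55.4 CPM in pericentral and 5.06 CPM in periportal cells, and its pools of 69.3 and 8.65 CPM differed 8.01-fold (6.38 to 10.2). Rnf43, a ubiquitin ligase that removes WNT receptors, was at 42.03 and 10.4 CPM, and its partner Znrf3 at 46.1 and 23.3 CPM. Several targets fell below the level filter and are given as counts of cells. Axin2, a target that restrains beta-catenin, had a count in 33 pericentral and 5 periportal cells (pools 20.2 and 1.22 CPM). Lgr5, a receptor for R-spondins, had one in 33 and 6 cells (22.6 and 1.22 CPM), Tbx3, a transcription factor, in 47 and 16 cells (32.4 and 4.99 CPM), and Sp5, a transcription factor, in 30 cells and 1 cell (13.8 and 0.31 CPM). Tcf7l2, the main transcription factor partner of beta-catenin in hepatocytes, was nearly level, at 54.5 and 44.05 CPM.

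Promoter windows were compared because several of the pericentral genes above are known targets of TCF and LEF, the factors through which beta-catenin acts. Windows were the 250 bases before each RefSeq start (GRCm38.p6), searched on both strands for CTTTGAA and CTTTGAT. At least one match stood in 9 of 150 windows of the pericentral genes (6%, with 39 of these genes not matched by symbol) and in 5 of 81 windows of the periportal genes (6.17%, 61 of 85 genes matched). Over all genes of the same table it stood in 2457 of 32851 windows (7.48%). The 2 sets of P9 genes therefore held the words about as often as promoters in general. The windows printed here show the range, 5′ to 3′ on the strand of the gene, with matches in capitals.
Lect2 (chr13:56548539-56548788, minus strand), a secreted protein from the pericentral set, with a match 32 bases before the start: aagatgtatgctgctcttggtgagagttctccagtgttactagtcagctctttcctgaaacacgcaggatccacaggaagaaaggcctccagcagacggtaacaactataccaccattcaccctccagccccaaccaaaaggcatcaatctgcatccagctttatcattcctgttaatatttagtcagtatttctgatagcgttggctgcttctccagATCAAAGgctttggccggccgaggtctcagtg
Tnfrsf19 (chr14:61037988-61038237, minus strand), a receptor of the TNF family from the pericentral set, with a match: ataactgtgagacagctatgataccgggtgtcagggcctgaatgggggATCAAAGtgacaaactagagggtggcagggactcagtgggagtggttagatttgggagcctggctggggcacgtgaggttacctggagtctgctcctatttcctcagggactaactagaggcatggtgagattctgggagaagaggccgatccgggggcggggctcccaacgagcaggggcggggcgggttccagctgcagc
Igf1 (chr10:87860861-87861110, plus strand), the growth factor, from the periportal set: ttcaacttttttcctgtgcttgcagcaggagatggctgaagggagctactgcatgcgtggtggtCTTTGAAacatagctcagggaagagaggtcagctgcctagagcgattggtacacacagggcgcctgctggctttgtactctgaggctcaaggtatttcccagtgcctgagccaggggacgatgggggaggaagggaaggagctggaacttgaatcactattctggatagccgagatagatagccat
Pnliprp1 (chr19:58728637-58728886, plus strand), the largest pericentral difference, with no match: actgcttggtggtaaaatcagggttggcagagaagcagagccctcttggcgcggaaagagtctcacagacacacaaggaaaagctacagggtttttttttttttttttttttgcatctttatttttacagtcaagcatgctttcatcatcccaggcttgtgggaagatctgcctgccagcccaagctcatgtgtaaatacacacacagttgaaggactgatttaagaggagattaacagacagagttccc
Lect2 was 2.52-fold higher in pericentral cells and Igf1 2.66-fold higher in periportal cells, so a match stood in windows of both sets.

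Known pericentral genes outside the score followed the score. Of 38 such genes, 26 passed the filter, 15 were at least 2-fold higher in pericentral and 0 in periportal cells, and the median log2 was 1.04. Gulo, the last enzyme of vitamin C synthesis, ran from 382 to 1801 CPM (median 1042) against 26.03 to 799.8 CPM (median 288.7), 3.32-fold apart (3.19 to 3.46). Slco1b2, which takes up bile acids and drugs, ran from 683 to 3140 CPM against 214.8 to 1008 CPM, and 39 pericentral cells lay above all periportal cells. Of 19 bile acid genes, 4 were at least 2-fold higher in pericentral and 0 in periportal cells (median log2 0.31). Over all 4458 genes compared these shares were 3.3% and 1.91%. In direction, 11 bile acid genes were higher in pericentral and 8 in periportal cells, with total counts and with TMM. Among all genes compared, 59.9% were higher in pericentral cells with total counts and 39.9% with TMM. The 4 past 2-fold were Cyp7a1, the rate-limiting enzyme of bile acid synthesis (51.6 and 12.7 CPM), Cyp27a1, a sterol hydroxylase (77.99 and 25.02 CPM), Slco1b2 and the export pump Abcc2 (253.4 and 113.7 CPM). Among 30 drug-metabolising enzymes, 3 were at least 2-fold higher in pericentral cells (Gstm2, Cyp2c37 and Cyp2c50) and 1, Cyp2j5, in periportal cells. Of these enzymes, 18 were higher in pericentral and 12 in periportal cells, or 17 and 13 with TMM. Which member of the Cyp2c and Gstm families was counted is uncertain. Ahr, the receptor for dioxin-like compounds, was at 54.8 and 23.8 CPM, and Blvrb, which reduces biliverdin, at 663 and 235.1 CPM.

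On the portal side, the gene with the largest difference and the same direction at P6 and P12 was Aldh1b1 (chr4:45799022-45804604), a mitochondrial aldehyde dehydrogenase. A330069E16Rik, at 72.6 CPM in periportal and 1.60 CPM in pericentral cells, differed more (log2 -4.83) but had the other direction at P12 (log2 0.58). Aldh1b1 ran from 0 to 1151 CPM (median 92.4) in periportal and from 0 to 158.4 CPM (median 4.47) in pericentral cells. Its pools of 151.2 and 11.6 CPM differed 13.03-fold (10.72 to 15.98). Cyp2a12 (chr7:27029081-27037375), a P450 of a family of similar genes, ran from 67.7 to 1677 CPM (median 667) against 0 to 588 CPM (median 34.4), 10.7-fold apart (9.81 to 11.6). It lies on the same stretch of chromosome 7 as Cyp2f2 (27119909 to 27133660), a gene of the score. Gls2, the liver glutaminase that frees ammonia from glutamine, was detected in all 49 periportal and in 24 pericentral cells, with medians of 74.8 and 0 CPM and pools 10.2-fold apart (8.12 to 12.9). Sfxn1, a mitochondrial serine carrier, was at 186.2 and 26.6 CPM (6.998-fold). Other named genes were the trypsin inhibitor Spink3 (9.24-fold), the matrix protein Smoc2 (7.12-fold), the complement protein C9 (5.89-fold), the water channel Aqp8 (5.77-fold), Selenbp2 (5.59-fold), the sulfide oxidase Sqrdl (5.26-fold), S100a10 (4.17-fold) and BC089597 (4.13-fold).

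Nitrogen genes differed unequally. Arg1, which splits arginine into urea and ornithine, ran from 747 to 2452 CPM (median 1252) in periportal cells and from 15.8 to 1371 CPM (median 76.5) in pericentral cells. The pools of 1256 and 298.5 CPM differed 4.21-fold (4.04 to 4.39), and the ranges overlapped between 747 and 1371 CPM, with 15 periportal cells above every pericentral cell. Ass1, an earlier step of the cycle, was 2.39-fold higher in periportal cells (2.28 to 2.51), Asl 1.53-fold (1.45 to 1.61), Otc 1.26-fold (1.21 to 1.31) and Cps1, which brings ammonia into the cycle, 1.14-fold (1.10 to 1.17). In all, 3 of 14 urea and ammonia genes were at least 2-fold higher in periportal cells (Gls2, Arg1, Ass1) and 1, Rhbg, in pericentral cells. Of 36 genes of amino acid breakdown, Ftcd and Amdhd1 of histidine breakdown were at least 2-fold higher in periportal and Csad, which makes the taurine precursor, in pericentral cells. Over all 4458 genes compared, 1.91% were at least 2-fold higher in periportal and 3.3% in pericentral cells.

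Glucose output and secretion differed less. Of 9 gluconeogenic genes, 0 reached 2-fold in either direction, 7 were higher in periportal cells (8 with TMM), and the median log2 was -0.51. Pck1, which commits carbon to glucose, was at 1373 and 1737 CPM in pericentral and periportal pools, G6pc, which releases glucose, at 742 and 1060 CPM, and Fbp1 at 1874 and 3063 CPM. Of 49 plasma protein genes, 38 were higher in periportal cells, 4 of them at least 2-fold (C9, Igf1, Apoc2 and Hrg). With TMM 44 were higher in periportal cells. With total counts 0 were at least 2-fold higher in pericentral cells. Among all 4458 genes compared, 59.9% were higher in pericentral cells with total counts and 39.9% with TMM. At least 2-fold higher were 1.91% in periportal and 3.3% in pericentral cells. Alb itself, albumin, was 1.12-fold higher in periportal cells, with 13288 to 34063 CPM against 14877 to 33853 CPM, ranges that overlapped nearly in full. Of 34 further portal markers, 10 were at least 2-fold higher in periportal cells. The other direction held for 2 genes of that list, Rnase4, a secreted ribonuclease (3629 CPM in pericentral and 953 CPM in periportal cells), and Insr, the insulin receptor (48.6 and 22.5 CPM). Rnase4 shares its locus with Ang, and how shared reads were assigned is not given in the sources used here.

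Few lipid genes differed 2-fold between the ends, and so did few of all 4458 genes compared (3.3% pericentral and 1.91% periportal). Of 13 fatty acid and triglyceride synthesis genes, 1 was at least 2-fold higher in periportal and 1 in pericentral cells. Acly, which makes the acetyl-CoA for fatty acid synthesis, was at 80.7 CPM in periportal and 20.8 CPM in pericentral cells (3.89-fold), and Scd1, which desaturates fatty acids, at 39.05 CPM in pericentral and 11.3 CPM in periportal cells (3.46-fold). Fatty acid oxidation had 0 of 23 genes past 2-fold, with Cpt1a, its entry step, at 306.5 CPM in pericentral and 190.2 CPM in periportal cells. Ketone synthesis had 0 of 4 genes past 2-fold. Of 20 sterol synthesis genes only Dhcr7 passed, at 44.5 CPM in periportal and 22.1 CPM in pericentral cells. Respiratory chain genes (0 of 44, median log2 -0.16) and ribosomal protein genes (0 of 50, median 0.08) did not reach 2-fold. With total counts and with TMM, 7 and 2 of the 44 respiratory chain genes were higher in pericentral cells. For the 50 ribosomal protein genes these numbers were 37 and 10, so their majority changed side with the scaling. Among all genes compared the shares were 59.9% and 39.9%. Of 28 transcription factors, Ahr and Stat5b were at least 2-fold higher in pericentral cells and Usf1 in periportal cells (680.4 and 277.5 CPM). Vegfa and Egln3, targets of the hypoxia factors, were at least 2-fold higher in pericentral cells, with 0 of 6 such genes in the other direction. Of 10 fetal liver genes, 1 passed 2-fold, Bex1 (78.9 CPM in periportal and 32.98 CPM in pericentral cells), while Afp, the fetal serum carrier, was at 8869 and 12200 CPM in these pools.

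Cell cycle genes stood higher in the periportal pool, but this rested on few cells. Of 26 cell cycle genes, 12 were at least 2-fold higher in the periportal pool and 0 in the pericentral pool, with a median log2 of -0.92. Over all 4458 genes compared these shares were 1.91% and 3.3%. Ube2c, which drives exit from mitosis, was at 138.6 CPM against 21.4 CPM, yet it had a count in 21 periportal and 24 pericentral cells and a median of 0 CPM in both. The summed level of 15 G2/M genes had a median of 33.9 CPM in periportal and 34.9 CPM in pericentral cells, and it exceeded 300 CPM in 9 of 49 periportal cells (18.4%, exact 95% interval 8.76 to 32.02%) and 8 of 49 pericentral cells (16.3%, 7.32 to 29.7%). The groups differed by 1 cell above 300 CPM, while 5 periportal cells and 1 pericentral cell exceeded 3000 CPM, so the contrast varied with the level. These are cells of 1 sample, and the intervals give no test between the groups. The highest 3 cells gave 54.3% of the periportal and 61.6% of the pericentral sum. After thinning every cell to 100000 counts, 9 of 49 and 7 of 46 cells lay above the matching level. For 14 S phase genes 20 periportal cells (40.8%) and 27 pericentral cells (55.1%) exceeded 300 CPM, and the pools were at 566 and 454 CPM. The number of cell cycle genes at least 2-fold higher in the periportal pool varied with the setting. Scored by means of single-gene z scores, the same rule gave 3, and the mean of single-cell CPM gave 7. With s split at its median it gave 14, and with TMM 15. Without the cells above 300 CPM of G2/M genes, which was tried after seeing the data, 1 of 13 cell cycle genes passed. A fall was built into this setting, since the cells were left out for high levels of G2/M genes. Fewer cell cycle genes also met the level filter, 13 rather than 26. Prc1 and Hmmr, spindle proteins among the 15 portal genes named for a large difference with the same direction at P6 and P12, belong with these genes: each had a median of 0 CPM in both groups.

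**Figure D2:**
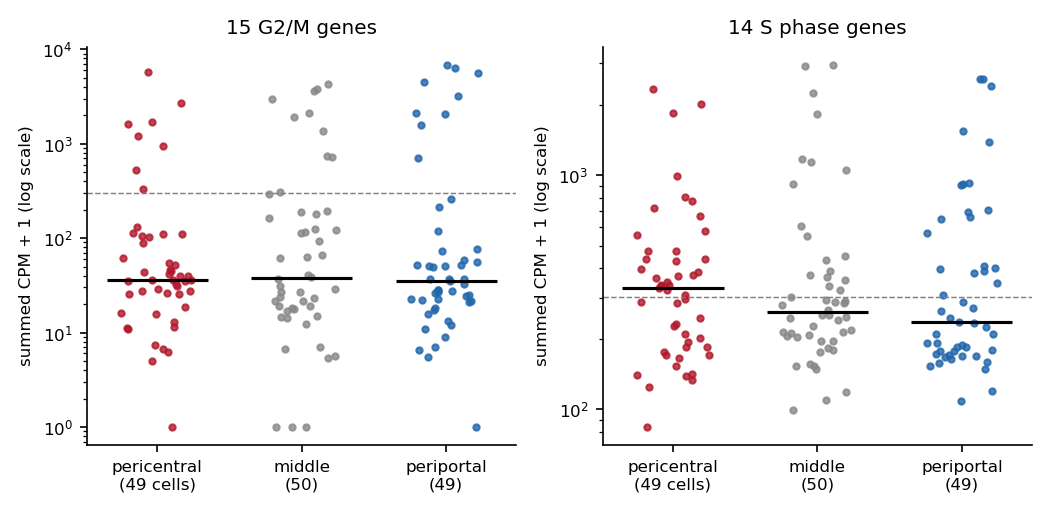
Summed CPM + 1 of 15 G2/M genes (left) and 14 S phase genes (right) in each P9 cell, on log scales, by group, with black bars at the medians and a dashed line at 300 CPM. The 9 periportal and 8 pericentral cells above the line are similar in number for G2/M genes, while the top 5 periportal cells lie higher.

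Markers of other liver cells differed in level between classes and between the ends. The 7 bile duct markers summed to 0 to 64.6 CPM in pericentral cells and 0 to 87.7 CPM in periportal cells, with Krt19 and Epcam counted in at most 2 cells of a group. The 12 macrophage markers summed to a median of 74.3 CPM and 121.5 CPM, and Clec4f, which hepatocytes should lack, had a count in 28 and 31 cells. The 10 white cell markers had a median of 0 CPM in both, and the 7 red cell markers had medians of 11.6 and 9.37 CPM. Endothelial markers summed to medians of 207.6 and 87.4 CPM, of which Ppap2b was the only one to pass the filter (at most 830.3 and 353.6 CPM in a cell), and Stab2, a scavenger receptor of liver endothelium, had a count in 21 pericentral and 5 periportal cells (8.09 and 1.53 CPM). Pecam1 and Cdh5, which define endothelium, were under 1 CPM in both pools. The 10 mesenchymal markers summed to 17.5 to 257.5 CPM (median 89.9) in pericentral cells and 0 to 530.7 CPM (median 21.4) in periportal cells. Of these Reln alone passed the filter, Dcn reached 355.4 CPM in a periportal cell, and the pools of Col1a1, Lrat and Des were at most 1.02 CPM. The part of other cells in the P9 differences was not tested.

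Whether the P9 differences recur in cells that the choice did not use was tested at 7 other ages. At P3, P6, P12, P15, P18, P24 and P30 the same score gave a top and a bottom group at each age, and the 14 pools were compared with edgeR's two-sided quasi-likelihood test with age as a block (11953 genes, Benjamini-Hochberg adjustment over all). In this fit 1646 genes (13.8%) were called higher and 1507 (12.6%) lower at the pericentral end at an adjusted p under 0.05. Of the pericentral P9 genes, 89.1% were called in the same direction and 1 in the other. The corresponding share among all 4458 genes compared at P9 was 15.6%. Of the 85 periportal genes, 53 (62.4%) were called in the same direction and 0 in the other, beside 25.8% of the 4458. The exception was Gm15541, at log2 1.70 at P9 and -0.57 ± 0.17 (SE) in the fit (edgeR adjusted p = 0.0273).

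The 30 named genes were chosen with the same direction at P6 and P12, so they were tested at the 5 other ages of this fit, a setting chosen after seeing the data (edgeR, 11774 genes, 10.2% called higher and 9.5% lower at the pericentral end). There 13 of 15 pericentral and 13 of 15 periportal genes were called in the P9 direction and 0 in the other. Notum differed by log2 2.24 ± 0.12 (edgeR adjusted p = 1.01e-05), Rhbg by 3.42 ± 0.25 (8.27e-05), Lhpp by 4.84 ± 0.18 (7.57e-07) and Arg1 by -1.64 ± 0.12 (8.27e-05). The 4 not called were Pnliprp1 (log2 1.84 ± 0.88, edgeR adjusted p = 0.1775), Ldhb (0.21 ± 0.30, 0.679), Prc1 (-0.32 ± 0.58, 0.743) and Hmmr (-0.63 ± 0.43, 0.339). With P6 and P12 in the fit, Pnliprp1 was also called (log2 3.03 ± 0.81, edgeR adjusted p = 0.0155), a call lost when P6, P12 or P15 was left out, and Ldhb, Prc1 and Hmmr were not called but passed when P24 was left out (edgeR adjusted p = 0.0148, 0.0316 and 0.0125). By list, over all 7 ages, 32 of 38 other pericentral markers were called higher and 2 lower (Gas2 and Hamp), and 32 of 38 other portal markers were called lower and 2 higher (Rnase4 and Insr). Over all genes of that fit, 13.8% were called higher and 12.6% lower. In the WNT list 16 of 24 genes were higher and 3 lower, among them Tcf7l2 (log2 -0.23 ± 0.07, edgeR adjusted p = 0.0369), against its P9 log2 of 0.30.

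Small P9 differences in some lists recurred as calls at the other ages. Over all 11953 genes of this fit, 12.6% were called lower and 13.8% higher at the pericentral end. Over the 4458 genes compared at P9 the shares were 25.8% and 15.6%. Respiratory chain genes were lower at the pericentral end for 41 of 44 (median log2 -0.39), gluconeogenic genes for 8 of 10 (median -0.85) and plasma protein genes for 34 of 50, with 2 higher. Among the hypoxia genes 7 of 12 were higher and 0 lower. Cell cycle genes were mostly not called: 1 of 36 was higher, Ccnd1, and 2 were lower, Ccne1 and Rrm2. Ube2c stood at log2 -0.78 ± 0.44 (edgeR adjusted p = 0.217) and Mki67 at -0.03 ± 0.28 (0.957) at these ages, beside -2.64 and -1.66 at P9. Cells above 300 CPM of G2/M genes in the pericentral and periportal groups numbered 5 and 4 of 57 each at P3, 6 and 6 of 43 each at P6, 12 and 11 of 50 each at P12, 5 and 9 of 51 each at P15, 2 and 6 of 66 each at P18, 10 and 3 of 59 each at P24, and 0 and 0 of 45 each at P30.

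**Figure D3:**
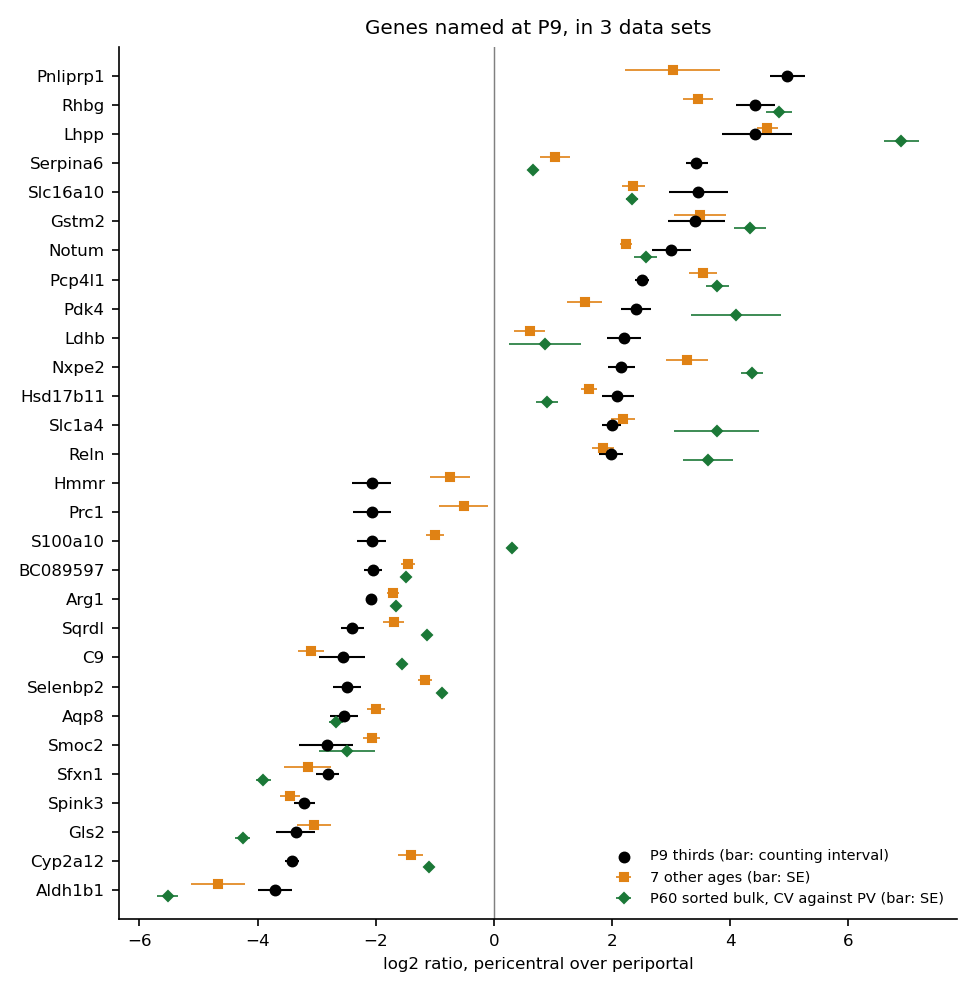
For the named genes, black points give the P9 log2 ratio of pericentral over periportal pools with the 95% counting interval, orange squares the fit over 7 other ages (P6 and P12, used in choosing these genes, among them) and green diamonds the P60 bulk fit of CV against PV, each with its SE. Serpina6, Cyp2a12 and Selenbp2 lie farther from 0 at P9 than in the other fits, while Lhpp, Nxpe2 and Aldh1b1 lie closer to 0. The genes were chosen for large P9 differences, so a P9 point farther out is in part built into the choice.

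The course by age differed between genes. Over the pericentral genes the median log2 was 0.36 at P0, 0.59 at P3, 1.13 at P6, 1.19 at P9, 0.94 at P12, 1.17 at P15, 0.79 at P18, 0.81 at P24 and 1.10 at P30. Over the 85 periportal genes it was -0.08, -0.41, -1.03, -1.55, -0.82, -1.20, -1.10, -0.52 and -0.49 at the same ages. The genes were chosen at P9, so its values are not compared with those of the other ages. Pnliprp1 was at 18.99 and 6.04 CPM (pericentral and periportal pools) at P3, 196.9 and 6.34 at P6, 186.3 and 5.46 at P12, 109.3 and 3.51 at P15, 22.8 and 1.46 at P18, 1.66 and 0.78 at P24 and 10.5 and 33.6 at P30. The pericentral pool was higher at each of these ages except P30. Serpina6 was 15.3 and 10.5 CPM at P3, 102.5 and 10.3 at P6 (log2 3.19), 285.2 and 26.4 at P9 (log2 3.38), and 1029 and 592 at P12. From P12 on both ends were high, with log2 differences from 0.41 at P30 to 1.47 at P15. Cyp2a12 changed mostly in its pericentral level, which was 136.5 CPM at P3, 104.2 at P6, 62.9 at P9, 306.7 at P12, 616 at P15 and 830 at P18, while the periportal level was 548, 553, 671, 1103, 1173 and 1152 CPM. Slc1a2, a glutamate transporter and a gene of the score, was at 1.03 CPM in pericentral cells at P6, 14.04 at P9 and 127.7 at P12.

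**Figure D4:**
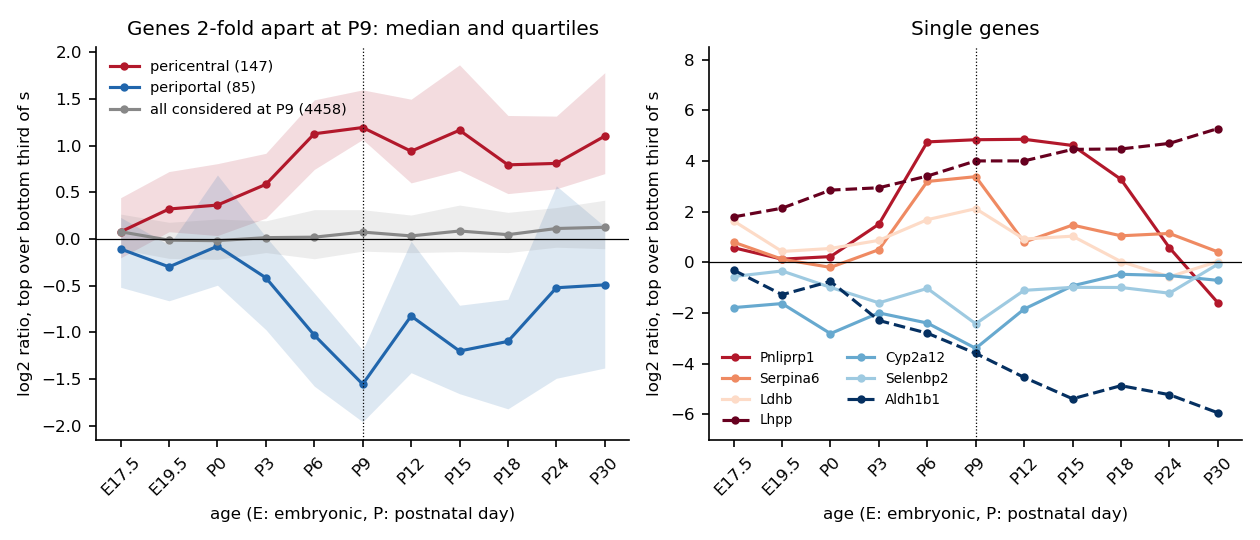
The left panel shows the median log2 ratio (lines) and quartiles (bands) at each age for the pericentral, the 85 periportal and all 4458 genes compared at P9; the right panel shows 7 single genes. The dotted line marks P9, where the genes were chosen; Pnliprp1 lies at log2 4.61 at P15 and 3.28 at P18, and is below 0 at P30.

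A test of whether the P9 difference departs from that of the 7 other ages (interaction term, 16 pools, 12795 genes) called 0 genes (0%) with edgeR at an adjusted p under 0.05. At an unadjusted p under 0.05 it had 564 genes, and DESeq2 called 1. Serpina6 departed by log2 2.22 ± 0.71 and Cyp2a12 by -2.18 ± 0.59 (edgeR adjusted p = 0.9995 for both). With a single P9 pool at each end, only large departures could have been called, so these values do not show that P9 equals the other ages. A test chosen after seeing the data, of the end difference at P18, P24 and P30 against that at P3, P6, P12 and P15, called 3 of 11953 genes (0.0251%), 0 of them among the pericentral or periportal P9 genes.

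Adult bulk libraries gave a comparison by surface protein rather than by score. CV and PV libraries at P60 were compared in a fit of all 6 libraries (10984 genes, edgeR), in which 1653 genes (15%) were called higher and 1528 (13.9%) lower in CV. The sort held at the level of the score: Glul was at 562 and 548 CPM in the 2 CV libraries, 40.99 and 20.8 in ML and 20.6 and 17.9 in PV, and Cyp2f2 at 2148 and 2197 CPM in PV and 1576 and 1610 CPM in ML, with a log2 of -4.66 ± 0.18 in CV against PV. Of the pericentral P9 genes, 99 (71.2% of those tested) were called higher in CV, beside 17.7% of all genes compared at P9. Of the 85 periportal genes, 63 were tested and 43 (68.3%) were called lower in CV, beside 23.9%. In both the other-age and the bulk fit, 97 pericentral and 42 periportal P9 genes were called in the P9 direction. The matching share over all genes compared was not computed, so these 2 counts stand without a background. The P9 genes were a small part of all calls in CV and PV: 5.99% and 2.81%.

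Rhbg was at 24.2 and 26.3 CPM in CV and 1.08 and 0.75 CPM in PV (log2 4.83 ± 0.22, edgeR adjusted p = 1.64e-09). Axin2 was at 3.89 and 4.75 CPM in CV and 0.08 and 0 CPM in PV, and Aldh1b1 at 0.69 and 0.76 CPM in CV and 34.2 and 33.5 CPM in PV. Serpina6, 10.8-fold apart at P9, stood at 390 and 417 CPM in CV and 262.3 and 248.7 CPM in PV (log2 0.66 ± 0.06, edgeR adjusted p = 3.56e-06). Alb, 1.12-fold apart at P9, stood at 27114 and 25618 CPM in CV and 90898 and 91759 CPM in PV (log2 -1.79 ± 0.02, edgeR adjusted p = 1.53e-14). Of the P9 genes, 5 were called in the opposite direction in bulk: Mmp14 (log2 -0.75 ± 0.22, edgeR adjusted p = 0.0204), Isyna1 (-1.29 ± 0.23), Aox3 (-1.03 ± 0.06), Ucp2 (2.14 ± 0.18) and S100a10 (0.31 ± 0.06). Pnliprp1 and Spink3 were not tested in bulk, where their counts were too low. Among the markers in the lists, Nt5e (CD73) and Cdh1 (CD324) were the sort proteins.

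**Figure D5:**
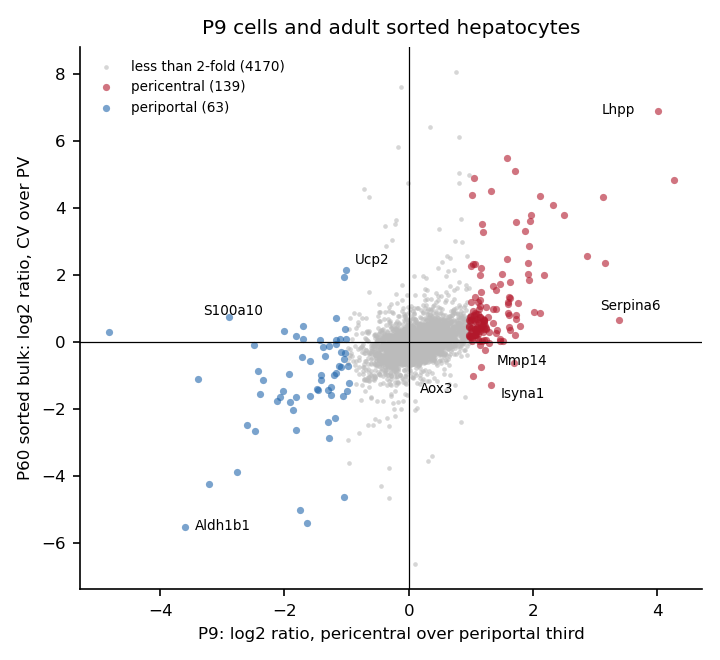
Each point is a gene compared at P9 and tested in bulk: the horizontal axis is the P9 log2 ratio of pericentral over periportal pools and the vertical axis the P60 log2 ratio of CV over PV libraries. Most of the pericentral genes (red) lie in the upper right and most of the 63 periportal genes (blue) in the lower left, and Ucp2, S100a10, Isyna1, Aox3 and Mmp14 were called in the other direction in bulk.

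Markers of several other cell types differed with the sort. Summed mesenchymal markers were at 66.2 and 80.5 CPM in CV and 0.39 and 0.51 CPM in PV, macrophage markers at 29.6 and 10.9 CPM against 0 and 0, and endothelial markers at 113.5 and 87.5 CPM against 34.2 and 32.6. Hepatocyte markers summed to 54688 and 53193 CPM in CV and 131628 and 132223 CPM in PV. In bulk, fewer cells of a type and less RNA per cell cannot be told apart, and the part of these cells in the bulk differences was not tested. Reln, a mesenchymal marker in the lists, was at 4.44 and 4.88 CPM in CV and 0.23 and 0.47 CPM in PV, and at P9 it had a count in all 49 pericentral cells (17.5 to 221.2 CPM).

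P9 nuclei, a separate set of samples, were ranked by the same score, giving 32 nuclei at each end. They were shallower, with 2466 to 616095 counts (median 95308) and a median of 3215 detected genes, and 24 of 96 had no portal count, so they are described only. Of the pericentral genes that could be compared, 83 (73.5%) were higher at the upper end, and their median log2 was 0.49 beside 0.02 for all genes. At least 2-fold higher were 26 of them at the upper and 4 at the lower end. Of the 85 periportal genes 39 could be compared, 30 were higher at the lower end, and their median log2 was -0.95. Of these 39 genes, 19 were at least 2-fold higher at the lower and 3 at the upper end. Lgr5 was at 79.7 and 4.65 CPM, with a count in 12 and 3 nuclei. Cyp7a1 was at 93.8 and 0.27 CPM, with a count in 7 nuclei and 1 nucleus. Cyp2a12 was at 56.3 and 75.5 CPM and Rnase4 at 240 and 230 CPM, so these 2 large cell differences were small in nuclei.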

How the data were processed

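The authors deposited whole-number counts per gene symbol, 1 table per assay, with 40824 genes and 92 spike-in entries (2.18% of the P9 counts). The submitters' processing notes name TopHat2 2.1.0, HISAT2 2.1.0, UMI-tools 0.5.0, HTSeq 0.6.0 and featureCounts 1.5.3 and 2.0.0, and the builds GRCm38 and mm10. The sources used here do not give which tool made which table, whether counts are reads or molecules, or whether strand was used. Columns of other groups were not used here (526 in the cell table and 1017 in the nuclei table).

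Spike-ins were left out of all totals. Counts of the 49 cells of each end were summed, and P9 is a description of 2 pools: a gene was compared at a mean of at least 20 CPM and a count in at least 20% of the cells of an end, and set apart at a 2-fold ratio of CPM, while log2 values use CPM + 1. The named genes are the 15 largest differences each way with the same direction at P6 and P12, and the leading members of each list. Counts cover all named genes, of which 1 is not reported here. The cells, the gene lists and the comparisons were chosen with earlier results of these data known. No doublet caller was run, since each sample is a picked cell or sorted nucleus.

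Tests used edgeR 4.0.16 in R 4.3.3 (TMM, filterByExpr, Benjamini-Hochberg, 0.05), on pools of 7 or 8 ages (6 residual degrees of freedom) and on 6 bulk libraries (3). The scripts were tested on simulated data. No label says that libraries of a zone came from separate animals, so p-values measure the spread between these samples. Alternatives used DESeq2 1.42.0, other filters, scores and cell groups, and left out each replicate or age. Gene coordinates are from GENCODE M21, promoter windows from RefSeq on GRCm38.p6. Amplified reads are not independent molecules, so intervals cover counting error only.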

Additional observations from a re-analysis of the deposited data

Results flagged for a closer look

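Over the 7 other ages, 2 of the 30 named genes had an age that stood apart from the other 6 by Dixon's test, which chance alone flags for about 1 group in 20. Serpina6 had a log2 end difference of 3.19 at P6. Selenbp2 had one of -0.0744 at P30, where its pools were at 36.5 and 38.5 CPM.

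The end difference of P18, P24 and P30 was also compared with that of P3, P6, P12 and P15, a test chosen after seeing the data (edgeR, 11953 genes). It called 3 genes (0.0251%), 0 of them among the P9 genes past 2-fold, with 838 genes at an unadjusted p under 0.05. Tff3, a trefoil peptide, differed by log2 -3.29 (edgeR adjusted p = 0.000435): its pericentral and periportal pools were at 17.7 and 20.6 CPM at P9 and at 6.56 and 100.3 CPM at P18. Mup3, of a family of near-identical genes, differed by log2 -1.67 (edgeR adjusted p = 0.000435), with 15.2 and 20.2 CPM at P9 and 547 and 1455 CPM at P24. Fam13a differed by log2 -2.04 (edgeR adjusted p = 0.0377), with 2.98 and 8.65 CPM at P9, and lost this call when P6, P12, P18, P24 or P30 was left out.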

How the results depend on the processing

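The P9 differences of at least 2-fold, 3.30% of compared genes in the pericentral and 1.91% in the periportal direction, became 5.26% in the pericentral direction with groups cut at the top and bottom 25% of the cells, 1.18% when s was split at its median, and 2.11% with TMM. They became 6.53% and 2.23% with a mean of at least 5 CPM and 2.15% and 1.98% with at least 50 CPM. The other P9 settings kept both counts of genes within 1.5 times. Leaving out the cells high in G2/M genes, a setting chosen after seeing the data, left 1 of 13 cell cycle genes past 2-fold. That fall was built into the choice of cells. All 30 named genes kept their P9 direction in every setting that compared them.

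The other-age calls, 13.8% of genes higher and 12.6% lower, became 2.95% and 1.57% with no age block and 5.38% and 4.92% with P3, P6, P12 and P15 alone. Without P6 and P12, a setting chosen after seeing the data, they stayed within 1.5 times, and Pnliprp1 lost its call. They ranged from 10.7 to 14.2% and from 10.1 to 13.4% with an age left out. Prc1 reversed to log2 0.03 with the top and bottom 25% of the cells (edgeR adjusted p = 0.981). The bulk counts of 1653 and 1528 genes stayed within 1.5 times, from 1146 to 1340 and from 1149 to 1280 with a library left out, and were 1611 and 1501 with the replicate block. For same-numbered libraries of different zones, the deviations of each gene's log CPM from the mean of its zone correlated at 0.0664 to 0.124. The numbers were therefore not taken to pair them. The P9 interaction called 0 and 1 genes (higher and lower) with DESeq2, 3 and 9 with no low count filter, 0 and 1 against P3, P6, P12 and P15, and 0 and 0 to 1 with an age left out. The late comparison called 12 and 16 genes with DESeq2, and 0 to 14 and 2 to 10 with an age left out.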
